A study of Mus musculus with 10 samples.

Results

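The receptors that bind IgG through its constant (Fc) part were examined in spleen RNA of DUSP6 KO and wild-type (WT) mice with KRN serum-induced arthritis (KSIA). The genes were taken by symbol from the deposited expression table. They were the activating receptors Fcgr1, Fcgr3 and Fcgr4, the signaling chain they share (Fcer1g), the inhibitory receptor Fcgr2b with the phosphatase it recruits (Inpp5d), the kinases Lyn and Syk, and the neonatal receptor Fcgrt, 9 of 54532 genes in all.

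KSIA is started by injecting serum that holds arthritogenic autoantibodies, so the disease depends on what the host's myeloid cells do with IgG immune complexes. Activating Fc gamma receptors pair with the gamma chain, whose ITAM tyrosines are phosphorylated by Src-family kinases such as Lyn and then bind Syk, while FcγRIIB carries an ITIM that recruits the phosphatase SHIP1, encoded by Inpp5d, and opposes the signal. The neonatal receptor FcRn binds IgG inside the cell together with beta-2 microglobulin and returns it to the circulation, which prolongs the life of IgG.

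DUSP6 KO mice carried the constitutive Dusp6tm1Jmol deletion, and the sample labels call their genotype "DUSP6 Knockdown". WT mice were C57BL/6J, and both strains came from the Jackson Laboratories. They were bought as separate lines, and the paper does not describe littermate controls. The Dusp6 deletion therefore cannot be told apart from other differences between the lines. Both groups were 8 to 12 weeks old and both received 100 µL of pooled serum from arthritic offspring of a KRN x NOD cross intraperitoneally on days 0 and 2, so that neither group was free of arthritogenic serum. Spleens were taken on day 9, with 5 mice per group and 1 library per mouse. Mice of both sexes were used in the study, and the sex of each spleen donor is not given in the labels.

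Values are FPKM, fragments per kilobase of transcript, scaled to the fragments mapped in each library, and so are levels per gene length. Read totals recovered from the table were 14990474 to 19822673 per DUSP6 KO library and 15611652 to 18422147 per WT library. Dusp6 was at 0.308 to 0.624 FPKM in KO spleens and 16.6 to 24.0 FPKM in WT, so that the genotype labels held in all 10 libraries. Spleen markers were present in every library, with 7 B cell markers summing to 619 to 1563 FPKM. Replicate 73 of DUSP6 KO and replicate 67 of WT stood apart. DUSP6 KO replicate 73 had the lowest summed B cell (619 FPKM) and T cell (95.6 FPKM) markers and the highest erythroid (89968 FPKM) and macrophage (2346 FPKM) markers of the 10. WT replicate 67 held 6156 FPKM of exocrine pancreas markers and had the highest B cell markers (1563 FPKM). WT replicate 65 held 88.2 FPKM of the pancreas markers, with a mean log2 level of 3.93. The remaining libraries held 9.52 to 26.2 FPKM, with mean log2 levels of -1.87 to -1.51. Results for the receptor genes are also given without DUSP6 KO replicate 73 and without WT replicate 67.

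The low-affinity receptors lie together on chromosome 1 of the mouse GRCm38 build. Fcgr2b (ENSMUSG00000026656) covers chr1:170958617-170976547 on the minus strand, Fcgr4 (ENSMUSG00000059089) chr1:171018920-171029761 on the plus strand, Fcgr3 (ENSMUSG00000059498) chr1:171051174-171064935 on the minus strand, and Fcer1g (ENSMUSG00000058715) chr1:171229572-171234365 on the minus strand. These 4 genes fall within 276 kb. Fcgr1 (ENSMUSG00000015947, chr3:96282909-96293969), Fcgrt (ENSMUSG00000003420, chr7:45092990-45103851) and the kinase and phosphatase genes Syk (ENSMUSG00000021457, chr13:52583173-52648792), Lyn (ENSMUSG00000042228, chr4:3678115-3813122) and Inpp5d (ENSMUSG00000026288, chr1:87620312-87720507) lie elsewhere. Each of the 9 is annotated as protein coding.

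Fcgr2b and Fcgr3 have opposite functions and nearly the same extracellular sequence, which bears on how far their reads can be told apart. The exon that codes for the second immunoglobulin-like domain is shown for both, from the GENCODE M21 transcripts on GRCm38. It is exon 4 of Fcgr2b-201 (chr1:170966446-170966700, minus strand) and exon 4 of Fcgr3-201 (chr1:171053939-171054193, minus strand), written 5′ to 3′ with the bases that differ in capitals.
Fcgr2b-201 exon 4: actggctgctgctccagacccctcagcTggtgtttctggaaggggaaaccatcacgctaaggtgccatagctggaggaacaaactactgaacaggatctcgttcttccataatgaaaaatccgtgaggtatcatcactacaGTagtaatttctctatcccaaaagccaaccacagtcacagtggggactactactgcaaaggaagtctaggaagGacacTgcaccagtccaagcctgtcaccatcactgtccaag
Fcgr3-201 exon 4: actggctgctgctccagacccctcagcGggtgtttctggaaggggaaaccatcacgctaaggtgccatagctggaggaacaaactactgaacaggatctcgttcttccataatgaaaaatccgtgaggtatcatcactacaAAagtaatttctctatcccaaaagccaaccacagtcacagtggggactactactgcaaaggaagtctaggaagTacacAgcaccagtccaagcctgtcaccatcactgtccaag
Of the 255 bases 5 differed, an identity of 98.0%, whereas exon 4 of Fcgr4-201 shared 55.7% of its bases with that of Fcgr2b-201. Over the whole transcript, 166 of the 1298 windows of 50 bases in Fcgr3-201 (12.8%) also occurred in Fcgr2b-201, and these were 4.75% of the 3495 windows there. No 50-base window of Fcgr4-201 or Fcgr1-201 occurred in either gene. Reads from the shared stretch can be assigned to Fcgr2b or Fcgr3 only where they or their mates reach a differing base. How many reads this touches depends on the length of the reads and the place of their mates. The shares of windows do not measure it, and the uncertainty it leaves in both genes' values was not tested.

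No difference between DUSP6 KO and WT passed the test in any of the 9 genes. By limma with Benjamini-Hochberg adjustment over 21296 genes, 0 of 9 had an adjusted p of 0.05 or less, against 0.0704% of all genes tested (15 genes). The number with an unadjusted p under 0.05 was also 0 of 9, against 5.66% of all genes, and limma voom on the recovered reads gave 0 and 0. The paper tested counts with DESeq2 and reports many more changed genes than the 15 here. It lists Marco, Prss34 and Mcpt4 as significant, which did not pass limma here. A gene that did not pass here may therefore pass another test. The groups overlapped for every one of the 9, while 1.11% of all genes had groups that did not overlap. Of the 9 genes 8 had a lower mean in DUSP6 KO. Their median log2 fold change was -0.11, and over all genes tested the median was -0.0046 with 51.0% lower. The 95% intervals of the 9 genes together ran from 0.630-fold (Fcgr1) to 1.27-fold (Fcgr4) of WT. A change beyond these ends was outside the interval of every gene. Single intervals could be narrower, as for Fcgr3 at 0.815-fold to 1.11-fold. Changes inside a gene's own interval were not resolved with 5 spleens per group. In whole spleen, fewer cells of a type and less RNA per cell cannot be told apart.

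**Figure D1:**
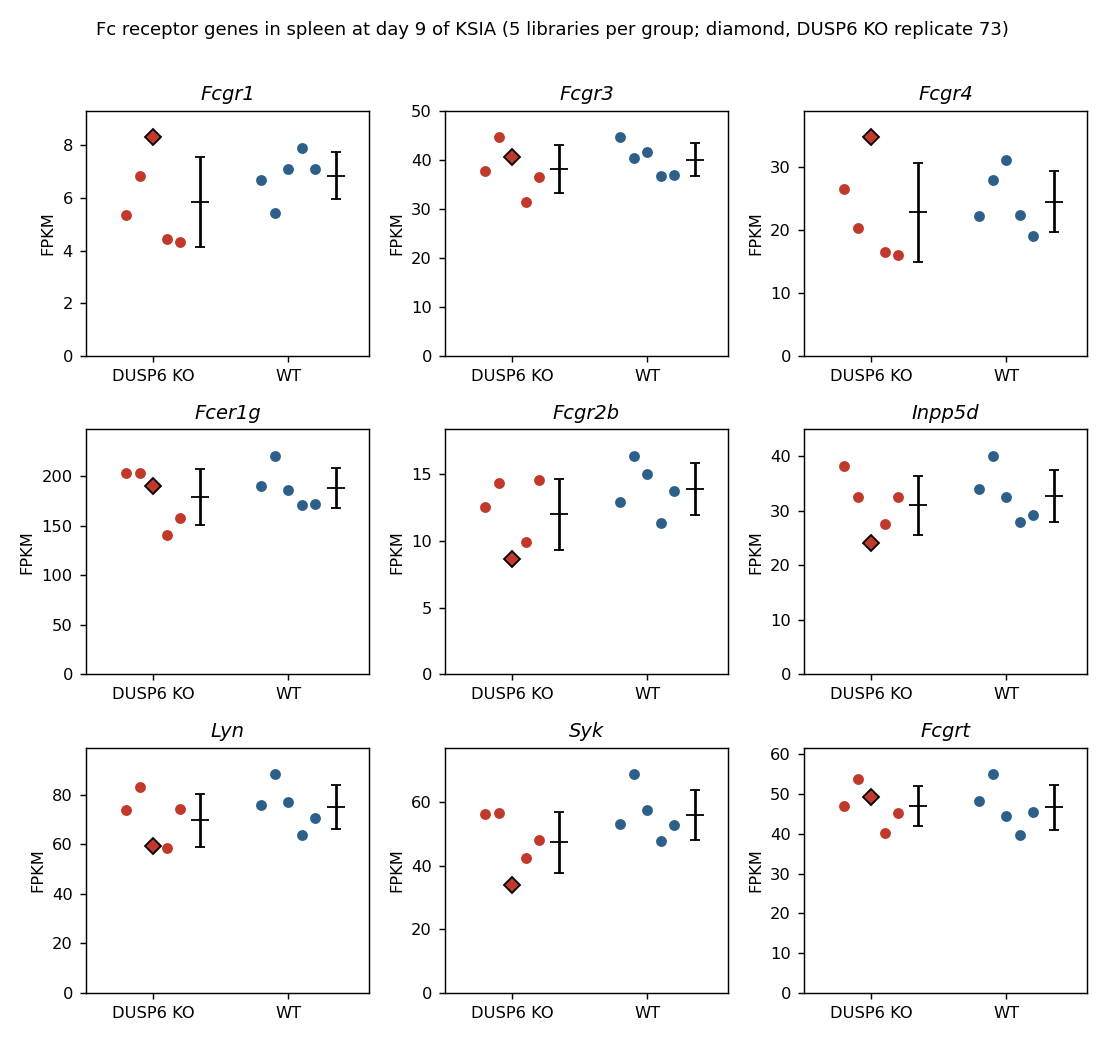
Level in FPKM (linear axes from 0) of each of the 9 genes in the 5 DUSP6 KO and 5 WT spleen libraries, 1 point per library, with the group mean and SD as a bar beside the points and DUSP6 KO replicate 73 as a diamond. The groups overlap in every panel, and the diamond is the highest point for Fcgr1 and Fcgr4 and the lowest for Fcgr2b, Inpp5d and Syk.

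Among the activating receptors, Fcgr3 encodes the low-affinity FcγRIII of macrophages, neutrophils, NK cells and mast cells and had the highest level. It was at 37.9, 44.7, 40.8, 31.4 and 36.6 FPKM in the KO spleens (replicates 26, 21, 73, 01 and 03), and the WT spleens (replicates 65, 67, 73, 77 and 83) were at 44.7, 40.4, 41.7, 36.7 and 37.0 FPKM, an order of libraries kept for the genes that follow. DUSP6 KO replicate 01 was below the WT range, replicate 03 was just under its lower end, and replicate 21 reached its upper end. The means were 38.3 ± 4.96 (SD, n = 5) and 40.1 ± 3.36 FPKM (SD, n = 5), with a log2 fold change of -0.07 (SE 0.10, adjusted p = 0.993, exact permutation p = 0.50). The interval of 0.815-fold to 1.11-fold was among the narrowest of the 9 genes.

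Fcgr4 encodes FcγRIV, a myeloid receptor that binds mouse IgG2 subclasses. Its levels were 26.5, 20.4, 34.8, 16.5 and 16.0 FPKM in KO spleens and 22.3, 27.9, 31.1, 22.4 and 19.1 FPKM in WT. DUSP6 KO libraries held both the highest and the lowest values, with replicates 01 and 03 below every WT library and replicate 73 above them. The means of 22.8 ± 7.90 (SD, n = 5) and 24.5 ± 4.85 FPKM (SD, n = 5) gave a log2 fold change of -0.15 (SE 0.22, adjusted p = 0.993, exact permutation p = 0.56). At 34.6% of the mean, the SD in DUSP6 KO was the widest of the 9 genes.

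Fcgr1 encodes FcγRI (CD64), the high-affinity receptor of macrophages and monocytes, and had the lowest level of the 9. It was measured at 5.34, 6.81, 8.30, 4.42 and 4.33 FPKM in KO spleens and at 6.69, 5.44, 7.10, 7.90 and 7.11 FPKM in WT, from 186 to 343 reads per library. DUSP6 KO replicates 26, 01 and 03 were below the WT range and replicate 73 was above it. With means of 5.84 ± 1.70 (SD, n = 5) and 6.85 ± 0.900 FPKM (SD, n = 5), the log2 fold change was -0.26 (SE 0.18, adjusted p = 0.963, exact permutation p = 0.22). Without DUSP6 KO replicate 73 the log2 fold change was -0.40, with an unadjusted p of 0.029 and an adjusted p of 0.815 in limma.

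Fcer1g, the gamma chain on which surface expression and signaling of all 3 activating receptors depend, was the most abundant of the 9. Its levels were 203, 203, 190, 141 and 158 FPKM in KO spleens and 190, 221, 186, 170 and 172 FPKM in WT. DUSP6 KO replicates 01 and 03 were below all WT libraries and the other 3 were within the WT range. The means were 179 ± 28.2 (SD, n = 5) and 188 ± 20.2 FPKM (SD, n = 5), a log2 fold change of -0.08 (SE 0.12, adjusted p = 0.993, exact permutation p = 0.58). Fcer1g stood at 2.70 ± 0.253 times the summed FPKM of Fcgr1, Fcgr3 and Fcgr4 in DUSP6 KO and 2.63 ± 0.244 times in WT (SD, n = 5 each), so that the chain exceeded the summed receptors in all 10 libraries, from 2.26 to 2.99 times.

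On the inhibitory side, Fcgr2b encodes the ITIM receptor of B cells and myeloid cells. The 5 DUSP6 KO libraries were at 12.5, 14.4, 8.62, 9.95 and 14.6 FPKM and the 5 WT libraries at 12.9, 16.4, 15.0, 11.4 and 13.7 FPKM. Replicates 73 and 01 of DUSP6 KO were below the WT range, and the other 3 lay inside it. Mean levels of 12.01 ± 2.66 (SD, n = 5) and 13.9 ± 1.93 FPKM (SD, n = 5) gave a log2 fold change of -0.23 (SE 0.16, adjusted p = 0.963, exact permutation p = 0.23). The level rests on a length of 5790 bases in the deposited table, whereas the transcript Fcgr2b-201 has 3544, so that the place of Fcgr2b relative to other genes depends on that length and its comparison between groups does not.

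Inpp5d encodes SHIP1, which dephosphorylates the lipid messenger PIP3 once recruited by FcγRIIB. Its levels were 38.3, 32.6, 24.0, 27.6 and 32.6 FPKM in KO spleens and 34.0, 40.1, 32.4, 28.0 and 29.3 FPKM in WT. Here too replicates 73 and 01 were the only DUSP6 KO libraries below the WT range. The means were 31.0 ± 5.44 (SD, n = 5) and 32.8 ± 4.76 FPKM (SD, n = 5), with a log2 fold change of -0.09 (SE 0.14, adjusted p = 0.993, exact permutation p = 0.56). Without DUSP6 KO replicate 73 the log2 fold change was 0.0022.

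Lyn, the Src-family kinase that phosphorylates both ITAM and ITIM tyrosines, was at 73.6, 82.9, 59.0, 58.4 and 74.0 FPKM in KO spleens and 75.6, 88.2, 76.9, 63.6 and 70.5 FPKM in WT. The same DUSP6 KO libraries, 73 and 01, were the lowest of the 10. Mean Lyn was 69.6 ± 10.6 FPKM in KO spleens (SD, n = 5) and 75.0 ± 9.05 FPKM in WT (SD, n = 5), a log2 fold change of -0.11 (SE 0.12, adjusted p = 0.986, exact permutation p = 0.40).

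Syk, the kinase that docks on phosphorylated ITAMs and carries the signal on, had the smallest p of the 9. It was at 56.1, 56.4, 33.9, 42.3 and 48.2 FPKM in KO spleens and 53.0, 68.7, 57.4, 47.7 and 52.7 FPKM in WT. DUSP6 KO replicates 73 and 01 were below the WT range, and WT replicates 67 and 73 were above every DUSP6 KO library. The means of 47.4 ± 9.56 (SD, n = 5) and 55.9 ± 7.94 FPKM (SD, n = 5) corresponded to 0.840-fold of WT (95% interval 0.667 to 1.06), a log2 fold change of -0.25 (SE 0.15, adjusted p = 0.944, exact permutation p = 0.17). The log2 fold change was -0.14 without DUSP6 KO replicate 73 and -0.18 without WT replicate 67, and -0.32 (adjusted p = 0.722) without DUSP6 KO replicate 21.

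The neonatal receptor gene Fcgrt alone had a higher mean in DUSP6 KO, by less than the spread. Its levels were 46.9, 53.8, 49.2, 40.2 and 45.2 FPKM in KO spleens and 48.2, 55.0, 44.6, 39.8 and 45.6 FPKM in WT, and every DUSP6 KO library lay within the WT range. The means were 47.1 ± 5.003 (SD, n = 5) and 46.6 ± 5.59 FPKM (SD, n = 5), a log2 fold change of 0.01 (SE 0.10, adjusted p = 0.998, exact permutation p = 0.87), and the interval was 0.864-fold to 1.18-fold of WT. B2m, its partner chain, was at 1911 ± 258 FPKM in KO spleens and 2128 ± 201 FPKM in WT spleens (SD, n = 5 each), with log2 fold change -0.16 (adjusted p = 0.982, limma).

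**Figure D2:**
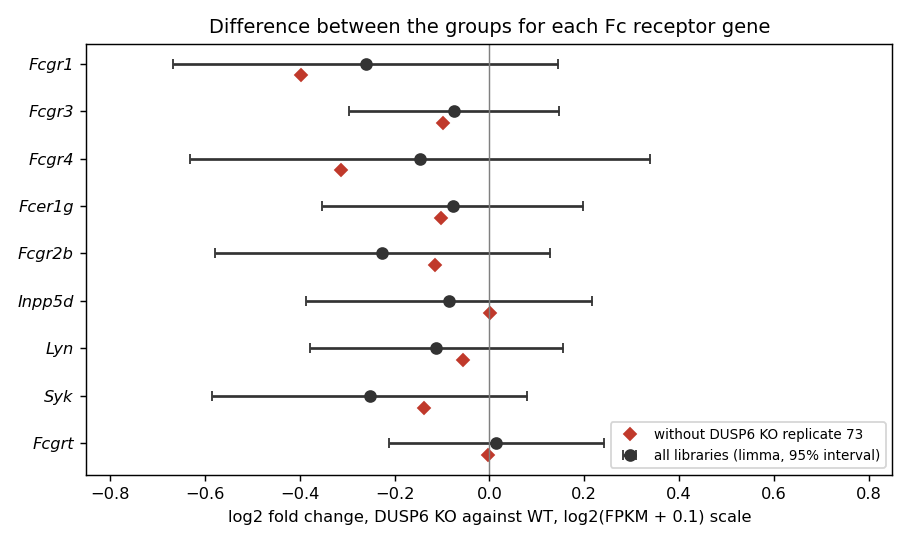
Log2 fold change of DUSP6 KO against WT on the log2(FPKM + 0.1) scale for each of the 9 genes, as black points with 95% intervals from limma (5 libraries per group) and red diamonds for the value without DUSP6 KO replicate 73. Every interval crosses 0. The diamonds lie further from 0 than the points for Fcgr1, Fcgr3, Fcgr4 and Fcer1g and nearer to 0 for Fcgr2b, Inpp5d, Lyn and Syk. For Fcgrt the diamond lies just below 0 and the point just above it.

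DUSP6 KO replicate 73 was high for some of these genes and low for others. Relative to the mean of the other 4 DUSP6 KO libraries on the log2 scale it was at 1.79-fold for Fcgr4 and 1.604-fold for Fcgr1, at 1.09-fold for Fcgr3 and Fcer1g and 1.06-fold for Fcgrt. It was at 0.824-fold for Lyn, 0.738-fold for Inpp5d, 0.680-fold for Fcgr2b and 0.673-fold for Syk. B cells express Fcgr2b, Lyn, Syk and Inpp5d and normally lack the activating Fc gamma receptors, and summed B cell markers in this library were 619 FPKM against 889 to 1203 FPKM in the other DUSP6 KO libraries. Its neutrophil markers summed to 1947 FPKM against 573 to 1008 FPKM in those libraries. WT replicate 77 had the highest neutrophil markers of the 10 libraries, 4789 FPKM. Its B cell markers summed to 701 FPKM, against 1078 to 1563 FPKM in the other WT libraries. Relative to those libraries it was at 0.908-fold for Fcgr4, 0.899-fold for Fcgr3 and 1.20-fold for Fcgr1. It was at 0.789-fold for Fcgr2b, 0.829-fold for Inpp5d, 0.821-fold for Lyn and 0.828-fold for Syk. Fcer1g was at 0.891-fold and Fcgrt at 0.826-fold. The part of cell makeup in the values of the receptor genes was not tested. Leaving DUSP6 KO replicate 73 out moved the log2 fold change of Fcgr4 to -0.31, of Fcgr2b to -0.11 and of Lyn to -0.06. That of Fcgr3 moved to -0.099 and that of Fcer1g to -0.103. None passed the threshold.

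WT replicate 67 was the highest library of the 10 for Fcer1g, Fcgr2b, Inpp5d, Lyn, Syk and Fcgrt, at 1.23-fold to 1.31-fold of the other WT libraries. For Fcgr1 it was the lowest WT library, at 0.761-fold, and for Fcgr3 it was at 1.01-fold. Without it the log2 fold changes were -0.34 for Fcgr1, -0.07 for Fcgr3, -0.09 for Fcgr4, -0.02 for Fcer1g, -0.16 for Fcgr2b, -0.01 for Inpp5d, -0.05 for Lyn and 0.08 for Fcgrt. None of these passed the test either.

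DUSP6 KO replicate 01 had the lowest or the next lowest level of the 10 libraries for all 9 genes, at 0.704-fold (Fcgr4) to 0.888-fold (Syk) of the other DUSP6 KO libraries. It was the lowest library for Fcgr3, Fcer1g and Lyn. Its summed markers of macrophages (1558 FPKM), monocytes (179 FPKM) and neutrophils (573 FPKM), cells that express most of these genes, were also the lowest of the 10, and their part in the receptor levels was not tested. Without this library the log2 fold change of Fcer1g was 0.0050 and that of Fcgr3 -0.0050, and the others were -0.17 (Fcgr1), -0.04 (Fcgr4), -0.17 (Fcgr2b), -0.05 (Inpp5d), -0.05 (Lyn), -0.22 (Syk) and 0.07 (Fcgrt).

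The balance of activating and inhibitory receptors is often described by their ratio. The summed FPKM of Fcgr1, Fcgr3 and Fcgr4 was 5.57, 4.9996, 9.73, 5.26 and 3.91 times that of Fcgr2b in DUSP6 KO and 5.71, 4.50, 5.32, 5.89 and 4.61 times in WT. Replicate 73 had the highest ratio of the 10 libraries and replicate 03 the lowest, both of them DUSP6 KO. The mean ratio was 5.89 ± 2.23 in KO spleens and 5.21 ± 0.631 in WT spleens (SD, n = 5 each), a difference of 0.12 between the mean log2 ratios, which was smaller than the spread within DUSP6 KO. Without replicate 73 this difference was -0.08, with the opposite sign. The ratio of Fcgr3 to Fcgr2b was 3.31 ± 0.837 and 2.93 ± 0.410, and that of Fcgr4 to Fcgr2b 2.07 ± 1.16 and 1.77 ± 0.264 (SD, n = 5 each). Fcgr1 to Fcgr2b stood at 0.521 ± 0.256 and 0.507 ± 0.130 (SD, n = 5 each), and its mean log2 ratio alone was lower in KO spleens, by a difference of -0.04 against 0.15 for Fcgr3 and 0.08 for Fcgr4. Since the levels of Fcgr2b and Fcgr3 share part of their sequence and the ratios depend on the length used for Fcgr2b, only their comparison between libraries is interpretable. By reads and without a length, Fcgr3 had 0.991 ± 0.251 times the reads of Fcgr2b in DUSP6 KO and 0.878 ± 0.123 times in WT (SD, n = 5 each). Between the kinases, Lyn was at 1.49 ± 0.166 times the FPKM of Syk in DUSP6 KO (1.31 to 1.74) and 1.34 ± 0.0516 times in WT (1.28 to 1.43).

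**Figure D3:**
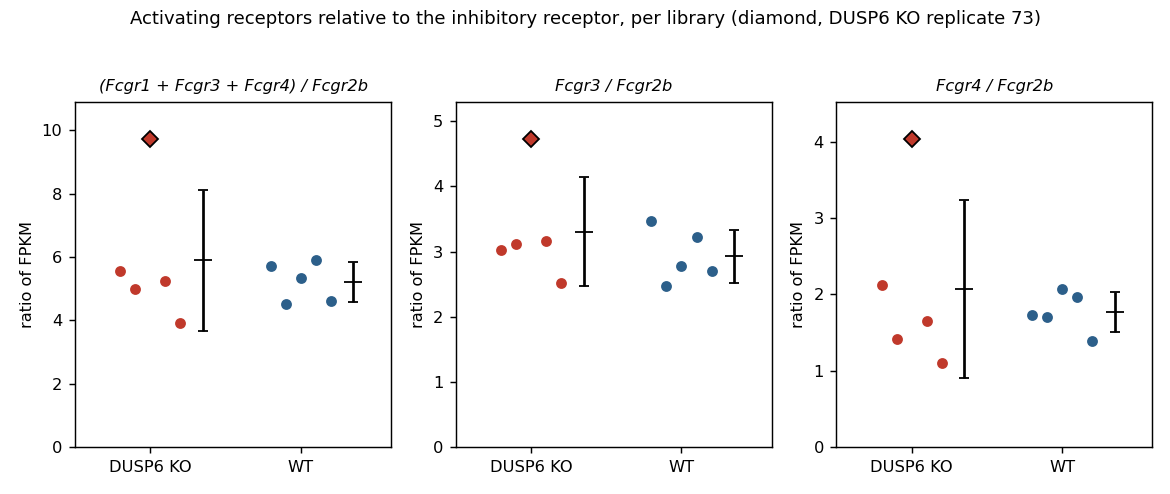
Ratio of FPKM values per library (linear axes from 0) for the 3 activating receptors summed, Fcgr3 and Fcgr4, each over Fcgr2b, in 5 DUSP6 KO and 5 WT spleens, with group means and SDs as bars. DUSP6 KO replicate 73, the diamond, is the highest point in each panel at 9.73, 4.73 and 4.04, and the other 4 DUSP6 KO libraries overlap the WT libraries.

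Per length, the 9 genes stood in the order Fcer1g (183 ± 23.6 FPKM, mean ± SD over the 10 libraries), Lyn (72.3 ± 9.71), Syk (51.6 ± 9.42), Fcgrt (46.9 ± 5.003), Fcgr3 (39.2 ± 4.11), Inpp5d (31.9 ± 4.91), Fcgr4 (23.7 ± 6.24), Fcgr2b (12.9 ± 2.40) and Fcgr1 (6.34, lowest). Each gene exceeded the next in all 10 libraries, except Syk over Fcgrt, Fcgr3 over Inpp5d and Inpp5d over Fcgr4, which held in 9 of 10. The levels of Syk and Fcgrt differed by less than the SD of Syk. Fcgr4, Fcgr2b and Fcgr1 thus held the 3 lowest places, and of the Fc gamma receptors Fcgr3 alone was above Inpp5d.

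The genes also differed in which other genes had a like profile, measured as the mean absolute difference of log2 values centred on each gene's mean over the 10 libraries, across 13422 genes of at least 1 FPKM. The smaller this distance, the more alike the profiles, and it is a description over shared libraries. It is not scaled to the spread of each gene, so genes that vary little lie close to each other whatever their profiles. The mean departure of a gene from its own mean was 0.277 for Fcgr1, 0.121 for Fcgr3 and 0.150 for Fcer1g. Nearest to Fcgr2b were Psmb8 (0.054), an immunoproteasome subunit, Rcsd1 (0.056) and Atp2a3 (0.056), a calcium pump of the endoplasmic reticulum, against a mean departure of Fcgr2b from its own mean of 0.219. Nearest to Fcgr4 were Usp18 (0.134), Tmem273 (0.136) and Ifit1 (0.149), with an own departure of 0.304. Usp18 and Ifit1 are known as interferon-stimulated genes. For Fcgr1 the nearest were Cisd2 (0.113), Cds1 (0.1202) and Pira2 (0.123), an activating receptor of the paired immunoglobulin-like type that itself signals through the gamma chain. Dtx3l (0.055), Tmem26 (0.061) and Serpinb6a (0.064) were nearest to Fcgr3, and Rap2b (0.061), Akr1a1 (0.064) and Tmem26 (0.069) to Fcer1g, so that Tmem26 was near both. Among the 9 genes themselves the closest pairs were Inpp5d with Lyn (0.084), Fcgr3 with Fcer1g (0.085), Fcer1g with Fcgrt (0.086) and Fcgr2b with Syk (0.088). The most distant were Fcgr1 with Inpp5d (0.373) and Fcgr4 with Fcgr2b (0.341).

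Between Fcgr2b and Fcer1g on chromosome 1 lay 13 other annotated genes, of which 9 were tested, 6 with a higher and 3 with a lower mean in KO spleens, and 0 reached an adjusted p of 0.05. The 2 with an unadjusted p under 0.05 were named after their values were seen. Gm38204, an antisense RNA that overlaps Fcgr2b on the other strand, was at 0.503 FPKM in KO spleens and 0.206 FPKM in WT (log2 fold change 1.51, adjusted p = 0.833, limma). Whether reads were counted by strand is not given in the sources used here, so its reads and those of Fcgr2b may not be separated. Cfap126, a cilium gene, was at 1.80 and 1.18 FPKM (log2 fold change 0.57, adjusted p = 0.753, limma).

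The ligands of these receptors were read from the 4 IgG heavy chain genes, which plasma cells of the spleen express. None passed the test. Ighg3 was at 42.8 ± 25.1 FPKM in KO spleens and 99.1 ± 73.8 FPKM in WT spleens (SD, n = 5 each), or -1.13 as log2 fold change, with an unadjusted p of 0.033 and an adjusted p of 0.822 in limma. Ighg1 was at 56.2 ± 57.8 and 79.6 ± 22.7 FPKM, with 4 DUSP6 KO libraries at 20.7 to 48.8 FPKM, below the lowest WT library (56.3 FPKM), and replicate 21 at 158 FPKM. Ighg2b was at 182 ± 135 and 208 ± 112 FPKM, and Ighg2c at 376 ± 293 and 217 ± 156 FPKM (SD, n = 5 each). These transcripts come from the host's own B lineage cells and do not measure the injected serum IgG.

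Other receptors for antibodies include the IgE receptor, which also uses the gamma chain. Of 13 listed genes 12 passed the filter on low values, 2 with a higher and 10 with a lower mean in KO spleens. The median of their log2 fold changes was -0.14, and none (0) reached an adjusted p of 0.05. Ms4a2, the beta chain of the high-affinity IgE receptor of mast cells and basophils, was at 0.319 ± 0.0656 FPKM in KO spleens and 0.736 ± 0.135 FPKM in WT spleens (SD, n = 5 each), and its groups did not overlap (log2 fold change -0.996, unadjusted p = 0.00068, adjusted p = 0.299, limma). The sum of 6 basophil and mast cell markers was 11.4 to 16.8 FPKM in KO spleens and 18.7 to 46.3 FPKM in WT, and the markers did not go one way. The basophil proteases Prss34 (log2 fold change -2.13, adjusted p = 0.193, limma) and Mcpt8 (-1.67, adjusted p = 0.311, limma) were lower without overlap of the groups, whereas the mast cell protease Mcpt4 (2.40, adjusted p = 0.061, limma) was higher without overlap and Gata2 was at -0.07. The part of these cells in the level of Ms4a2 was not tested. Fcmr, the IgM receptor of B cells, was at 144 ± 37.7 and 200 ± 61.6 FPKM (log2 fold change -0.46, adjusted p = 0.944, limma). 13 of 14 genes for other receptors and adaptors that use Fcer1g or its relative Tyrobp were tested, 1 with a higher and 12 with a lower mean, with a median of -0.16 and 0 past an unadjusted p of 0.05. The lowest p values among them were those of Gp6, the collagen receptor of platelets (log2 fold change -0.44, adjusted p = 0.921, limma), and Trem3 (-0.79, adjusted p = 0.922, limma).

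Downstream of the receptors, 35 kinases, adaptors and oxidase subunits were tested. The mean was higher in KO spleens for 7 and lower for 28, the median of the log2 fold changes was -0.09, and 3 had an unadjusted p under 0.05, all of them lower, against 5.66% of all genes in either direction. Card9, the adaptor that links Syk to NF-κB, was at 3.21 ± 0.934 FPKM in KO spleens and 4.74 ± 0.803 FPKM in WT (log2 fold change -0.59, unadjusted p = 0.020, adjusted p = 0.767, limma). Ncf1, the p47phox subunit of the phagocyte oxidase, was at 39.8 ± 4.86 and 47.3 ± 4.41 FPKM (log2 fold change -0.25, unadjusted p = 0.027, adjusted p = 0.789, limma; SD, n = 5 each). Among 23 inhibitory receptors, phosphatases and other brakes, 3 had a higher and 20 a lower mean, with a median of -0.14 and 1 unadjusted p under 0.05. This was Clec4a2, an ITIM-bearing lectin receptor of myeloid cells, at 6.91 ± 0.894 and 9.13 ± 1.10 FPKM (log2 fold change -0.40, unadjusted p = 0.0052, adjusted p = 0.551, limma; SD, n = 5 each). Clec12a, another inhibitory lectin receptor, had a log2 fold change of -0.29 (adjusted p = 0.909, limma). No gene of either list had an adjusted p of 0.05 or less.

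**Figure D4:**
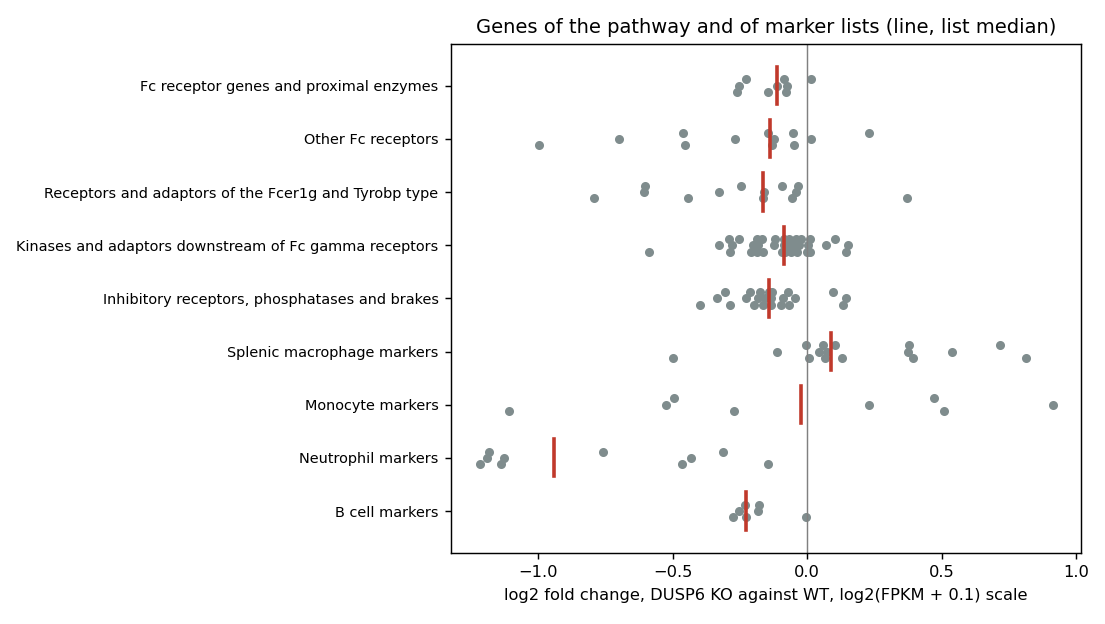
Log2 fold change of DUSP6 KO against WT on the log2(FPKM + 0.1) scale for each tested gene of the receptor set, the pathway lists and 4 lists of cell type markers, 1 point per gene, with each list's median as a red line. The 9 receptor genes lie between -0.26 and 0.01 with a median of -0.11, and the neutrophil markers have a median of -0.94.

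The cells that carry these receptors were read from marker lists, and no marker had an adjusted p of 0.05 or less in limma. The paper's DESeq2 test of counts did call Marco. Over all genes tested, 5.66% had an unadjusted p under 0.05 and 1.11% had groups that did not overlap, in either direction. Of 16 splenic macrophage markers 13 had a higher and 3 a lower mean in KO spleens (median of the log2 fold changes 0.09), and 5 had an unadjusted p under 0.05, all higher. Timd4 (56.3 ± 14.3 against 31.5 ± 4.13 FPKM, log2 fold change 0.81, adjusted p = 0.258, limma) and Marco (120 ± 27.3 against 71.6 ± 8.85 FPKM, log2 fold change 0.72, adjusted p = 0.343, limma), receptors of resident macrophages, had groups that did not overlap (SD, n = 5 each). Nor did those of Adgre1 (46.8 ± 8.52 against 35.6 ± 2.18 FPKM) and Csf1r (154 ± 18.6 against 118 ± 13.3 FPKM). All 10 neutrophil markers had a lower mean, with a median of -0.94 and 5 at an unadjusted p under 0.05, and their sum ran from 573 to 1947 FPKM in KO spleens and from 1142 to 4789 FPKM in WT. S100a9 had a log2 fold change of -1.14 and S100a8 one of -1.13 (adjusted p = 0.753 and 0.789, limma). Of 8 monocyte markers 4 had a higher and 4 a lower mean, and 6 had an unadjusted p under 0.05, with 3 in each direction. Ace (log2 fold change 0.91, adjusted p = 0.450, limma), Treml4 (0.47) and Cx3cr1 (0.51) were higher, and F13a1 (-1.11, adjusted p = 0.343, limma), Ccr2 (-0.50) and Ly6c2 (-0.53) lower. All 7 B cell markers had a lower mean (median -0.23; Ms4a1 -0.27 and Pax5 -0.23 on the log2 scale), as did all 6 NK cell markers (median -0.22), among them Klra8 (-1.12, adjusted p = 0.368, limma) and Gzma (-0.53). The part of these cells in the levels of the Fc receptor genes was not tested.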

How the data were processed

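Spleen RNA of 10 mice (5 DUSP6 KO, 5 WT) was poly-T selected, and paired-end reads were sequenced. The authors aligned reads with Hisat2, counted them with featureCounts (1.5.0-p3, per the submitters' processing notes) and deposited the table as FPKM per gene. The build named in the labels, hg38, is human. The table holds mouse Ensembl genes, and 53548 of its 54532 rows (all 9 receptor genes among them) have exactly the coordinates of GENCODE M21 on GRCm38, which was used here. Whether counting used strand is not given in the sources used here. The sequences shown are from the GENCODE M21 transcripts.

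Each deposited FPKM value was a whole multiple of what 1 read is worth, so reads per gene were recovered (100% of values within 0.05 read). The totals implied by the FPKM were 0.949 to 1.12 times the reads so counted, and the reason was not tested. These reads gave the depth and an alternative test. Intervals cover the spread between mice.

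Genes whose mean over the 10 libraries reached 0.1 FPKM were tested on log2(FPKM + 0.1) with limma 3.58.1 (lmFit, eBayes with trend, R 4.3.3), two-sided, with Benjamini-Hochberg adjustment over the 21296 genes and a threshold of 0.05. A fold change on this scale understates the change of low genes. Beside it stands a two-sided exact permutation test of 5 against 5 libraries (smallest possible p 0.0079; SciPy 1.17.1). Ratios of genes were described without a test. Libraries of the same group differed by more than sampling noise in all 20 pairs. The 10 other settings were pseudocounts of 1 and 0.01, a minimum of 1 FPKM, no filter, a robust trend, median centring, quantile normalization, limma voom on the recovered reads, rescaling after leaving out the genes of haemoglobins, mitochondria, immunoglobulins and T cell receptors and, added after seeing the data, rescaling to total reads. Each library was also left out in turn.

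Genes named were the 9 receptor genes, Dusp6, the 4 IgG heavy chain genes and B2m, the 2 lowest p values of each pathway or marker list (Mcpt8, Gata2, Adgre1, Csf1r, Treml4, Cx3cr1, Ccr2 and Ly6c2 were added after their values were seen), and the 3 genes most like each receptor. The genes and lists were chosen with earlier results of these data known. Some lists share cell types, since macrophages and neutrophils also express pathway genes. 207 rows share a symbol with another row, none of them a receptor gene.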

Additional observations from a re-analysis of the deposited data

Results flagged for a closer look

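In 58 groups of 5 libraries, the gap between the most extreme library and its nearest neighbour was compared with the range of the group by Dixon's ratio (critical value 0.71). Chance alone marks about 1 in 20 such groups, and 7 were marked.

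The ratio of the 3 activating receptors to Fcgr2b was 9.73 in DUSP6 KO replicate 73, far from the other 4 DUSP6 KO libraries (3.91 to 5.57). Ighg1 was at 157.5 FPKM in DUSP6 KO replicate 21 against 20.7 to 48.8 FPKM in the other DUSP6 KO libraries. Summed plasma cell markers were 498 FPKM in DUSP6 KO replicate 01 against 679 to 747 FPKM. Summed basophil and mast cell markers were 46.3 FPKM in WT replicate 77 against 18.7 to 25.5 FPKM in the other WT libraries. WT replicate 67 was marked in 3 measures, with a read total of 18422147 against 15611652 to 16348136, summed monocyte markers of 277 FPKM against 218 to 235 FPKM, and summed exocrine pancreas markers of 6156 FPKM against 13.3 to 88.2 FPKM.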

How the results depend on the processing

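None of the 9 receptor genes passed the test in any of the 20 alternatives, and the lowest adjusted p among them was 0.722 (Syk, without DUSP6 KO replicate 21). Of 180 values, 174 kept their direction and 6 changed sign, each of them close to 0. Fcer1g was at 0.0097 under quantile normalization and 0.0050 without DUSP6 KO replicate 01, Inpp5d was at 0.0022 without DUSP6 KO replicate 73, and Fcgrt was at -0.0349 without DUSP6 KO replicate 21, -0.0029 without DUSP6 KO replicate 73 and -0.0404 without WT replicate 77. With 1 library left out the log2 fold change ran from -0.127 to 0.0050 for Fcer1g, from -0.165 to 0.0022 for Inpp5d and from -0.0404 to 0.0761 for Fcgrt. The cause was not tested. The ratio of activating receptors to Fcgr2b differed by 0.12 (log2), by 0.15 for Fcgr3 alone, 0.08 for Fcgr4 alone and -0.04 for Fcgr1 alone, and by -0.08 to 0.25 when 1 library was left out, with the lowest value without DUSP6 KO replicate 73. Over all genes 15 passed the test, 8 without a filter (more genes tested) and 10 to 34 when 1 library was left out, with 34 (21 higher, 13 lower) without DUSP6 KO replicate 21. No paired analysis was made, because neither the labels nor the paper pair DUSP6 KO mice with WT mice. The replicate number 73 occurs in both groups and is not given as a pairing. With 5 spleens per group, changes inside a gene's own 95% interval were not resolved. Fcgr1 rests on 186 to 343 reads per library, the fewest of the 9.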

Other observations

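The remaining marker lists are given as values, with 0 genes at an adjusted p of 0.05 or less in limma in each. Of 6 basophil and mast cell markers 1 had a higher and 5 a lower mean in KO spleens (median of the log2 fold changes -0.54). Mcpt4, a mast cell protease, was at 4.54 ± 1.499 FPKM in KO spleens and 0.821 ± 0.407 FPKM in WT (log2 fold change 2.40, adjusted p = 0.061, limma). Prss34, a basophil protease, was at 2.58 ± 1.24 and 11.9 ± 6.64 FPKM (log2 fold change -2.13, adjusted p = 0.193, limma; SD, n = 5 each). For both proteases the groups did not overlap, in opposite directions. The paper lists both as significant by DESeq2, in the same directions as here. Mast cells and basophils both carry the IgE receptor and Fcgr3. Macrophages, neutrophils and NK cells carry Fcgr3 too, so its level in whole spleen, which did not pass the test, does not measure these cells.

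Of 6 plasma cell markers 1 had a higher and 5 a lower mean (median -0.16). Xbp1, the transcription factor of secretory cells, was at 47.4 ± 8.24 FPKM in KO spleens and 67.01 ± 10.3 FPKM in WT (log2 fold change -0.50, adjusted p = 0.555, limma; SD, n = 5 each), and Mzb1 had a log2 fold change of -0.19. Of 7 dendritic cell markers 5 had a higher and 2 a lower mean (median 0.10), with Siglech at 0.34 and Flt3 at -0.29 on the log2 scale. Of 8 T cell markers 5 had a higher and 3 a lower mean (median 0.03), with Cd5 at 0.13 and Cd28 at 0.15. All 6 erythroid markers had a higher mean (median 0.30), with Hba-a1 at 0.42 and Hbb-bs at 0.41. Of 6 endothelial and sinus markers 4 had a higher and 2 a lower mean (median 0.07), with Stab2 at 0.30 and Cdh5 at 0.19. The 5 exocrine pancreas markers, Prss2 and Try4 among them, had a lower mean, and their WT level came mainly from WT replicate 67.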
